A study of Mus musculus with 16 samples.

Results

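The nuclear genes for the subunits of respiratory complexes II, III, IV and V were examined in growing mouse oocytes that had lost Hdac1, Hdac2 or both genes. The members were taken by gene name, by a rule that uses no measured value but was written with earlier results of these data known: Sdha to Sdhd, the Uqcr genes and Cyc1, the subunit genes Cox4 to Cox8, and the Atp5 genes. Pseudogenes and the assembly genes Cox10 to Cox20 were left out, and each gene was read from its probe set with the highest mean among those annotated with exactly 1 gene symbol. This gave 46 of the 18820 genes tested, 4 of complex II, 8 of complex III, 17 of complex IV and 17 of complex V. They held 71 of the 21218 tested probe sets.

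Complex II, succinate dehydrogenase, oxidises succinate in the tricarboxylic acid cycle and passes the electrons to ubiquinone. Complex III passes them from ubiquinol to cytochrome c, complex IV (cytochrome c oxidase) passes them on to oxygen, and complex V, ATP synthase, uses the proton gradient built along the way to make ATP. Several subunits of complexes III, IV and V are encoded by the mitochondrial DNA and the others, described here, by nuclear genes. Growing oocytes accumulate mitochondria and rely on oxidative phosphorylation of pyruvate, which the surrounding granulosa cells supply.

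The study compared 4 genotypes on the C57BL/6 background: wild type, Hdac1 conditional knockout, Hdac2 conditional knockout, and the conditional knockout of both genes (the double knockout). HDAC1 and HDAC2 are closely related enzymes that remove acetyl groups from histones. The deletion was driven by a Zp3-Cre transgene, which is active in growing oocytes and not in the other cells of the ovary, and the labels do not say whether the wild-type mice carried the transgene. Each array was hybridised with amplified RNA from 80 oocytes of mice 12 days old, and each genotype had 4 arrays, which the labels call biological replicates, so that a value is an average over a pool of oocytes. Values are log2 signals of a probe set, and the base of the logarithm was inferred from their range of 2.07 to 12.89. They allow a gene to be compared between arrays and not with another gene.

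The Hdac1 probe set read 9.28 ± 0.05 (SD, n = 4) in wild type, 6.61 ± 0.19 in the Hdac1 knockout and 7.66 ± 0.10 in the double knockout. The Hdac2 probe set read 11.09 ± 0.07 in wild type, 10.99 ± 0.03 in the Hdac2 knockout, against 10.87 ± 0.06 in the double knockout, so it did not show the deletion, and these arrays did not check the Hdac2 genotype. All 12 oocyte markers examined were above 5.26, the median of tested values, in every genotype, and their summed signal on the linear scale lay between 37107 and 39001 on the 16 arrays. By limma 0 of these 12 were called higher in the double knockout than in wild type and 3 lower, with a median change of -0.02. The 3 were Figla (-0.56), Mos (-0.50) and Kit (-0.17), falls that the summed signal does not show. Over all tested probe sets, 18.5% were called higher and 19.8% lower. Markers of granulosa cells (10 measured) summed to between 1056 and 1159 in wild type and between 684 and 725 in the double knockout. Of these 10, 3 were called higher in the double knockout (log2 changes of 0.74 for Gja1, 0.59 for Inha and 0.49 for Wnt4) and 2 lower (-1.07 for Nr5a2 and -0.37 for Kitl), and the median change was 0.05. The sum is on the linear scale, where Nr5a2, the brightest of the 10 in wild type, weighs most. The defining granulosa genes Amh, Fshr and Foxl2 were at or under 4.78 in each genotype's mean. Markers of blood, immune and endothelial cells (9 measured) summed to between 621 and 686 in wild type and between 331 and 410 in the double knockout. Of these 9, 3 were called lower (-1.37 for Pecam1, -0.81 for Tek and -0.28 for Alas2) and 1 higher (0.38 for Cd68), with a median change of -0.02, and the endothelial genes Cdh5 and Kdr, at or under 3.83 in each genotype's mean, changed by -0.01 and -0.02 and did not pass. Theca and stroma markers (10 measured, 1 higher and none lower) summed to between 148 and 163 over all genotypes. Their part in the changes of the respiratory genes was not tested. In a pooled sample, fewer cells of a type and less RNA per cell cannot be told apart.

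In the double knockout most subunit genes of complexes III, IV and V rose by a small amount, and the 4 genes of complex II were divided. Of the 46 members, 32 were higher in the double knockout than in wild type, 3 were lower and 11 did not pass, by limma's moderated test with Benjamini-Hochberg adjustment over all tested probe sets (adjusted p under 0.05). Of all tested probe sets, 18.5% were called higher and 19.8% lower in this comparison. The changes were small: their median over the members was 0.25 on the log2 scale, against -0.01 over all tested probe sets, and 7 of the 35 that passed differed by at least 1.4-fold, the limit the study's design text names. By complex, 1 of 4 genes of complex II was higher and 1 lower (median change 0.06). In complex III 7 of 8 were higher and none lower (0.30), in complex IV 13 of 17 were higher and 1 lower (0.24), and in complex V 11 of 17 were higher and 1 lower (0.29).

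The shift was present on each array of the double knockout. The median over the 46 members of a gene's value minus its wild-type mean was 0.22, 0.22, 0.27 and 0.25 on the 4 arrays, with 39 to 41 members above their wild-type mean. The same median lay between -0.08 and 0.06 on the wild-type arrays, between -0.08 and 0.01 in the Hdac1 knockout and between -0.05 and 0.03 in the Hdac2 knockout, so the double knockout did not overlap any other genotype. Over all tested probe sets it was -0.02 to -0.01 on the double-knockout arrays. All 4 double-knockout arrays were above all 4 wild-type arrays for 32 members, against 16.9% of all tested probe sets, and below them for 2 members, against 18.9%. Among the 2122 tested probe sets brightest in wild type, 22.3% were called higher and 28.6% lower. Of the 28 members among them 20 were higher and 2 lower. The part of brightness or scaling in the shift was not tested.

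**Figure D1:**
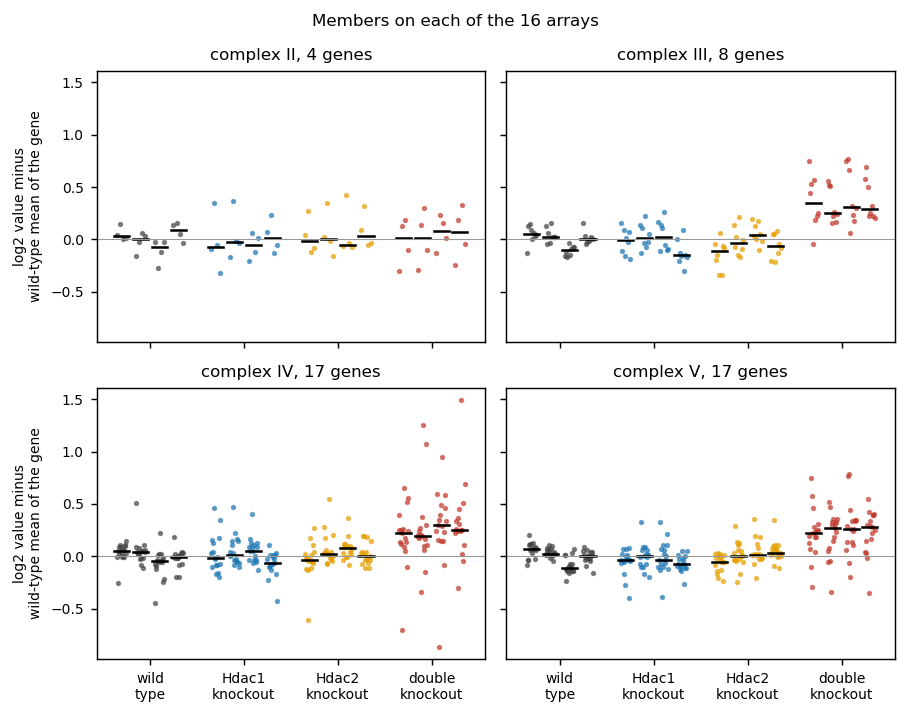
Each point is 1 member on 1 array, plotted as its log2 value minus the wild-type mean of the same gene (vertical axis), with the 16 arrays side by side by genotype (horizontal axis) and a black bar at the median of each array. In complexes III, IV and V the bars of the 4 double-knockout arrays lie above those of the other 12 arrays, between 0.20 and 0.35, while in complex II they lie between 0.01 and 0.08.

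With either gene deleted alone, few members passed. In the Hdac1 knockout no member passed against wild type by limma (0 of 46, with 2 at an unadjusted p under 0.05), the median change was -0.03 and the changes ran from -0.17 to 0.34, where 0.0189% of all tested probe sets were called higher and 0.0518% lower. In the Hdac2 knockout 1 member, Sdhb, was higher and none lower (4 at an unadjusted p under 0.05), the median change was 0.01 and the changes ran from -0.18 to 0.34, where 2.86% of all tested probe sets were called higher and 2.74% lower. Whether the double knockout differed from the sum of the single deletions was tested as an interaction, the change in the double knockout minus the changes in the single knockouts. This was positive and passed for 25 members, negative and passed for 2 and not passed for 19, with a median of 0.28. Centring each array on its median left 14 positive calls, and leaving out 1 array left 18 to 26. Of all tested probe sets, 11.7% were called positive and 11.6% negative. By complex it passed upwards for 1 of 4 genes of complex II, 7 of 8 of complex III, 9 of 17 of complex IV and 8 of 17 of complex V.

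**Figure D2:**
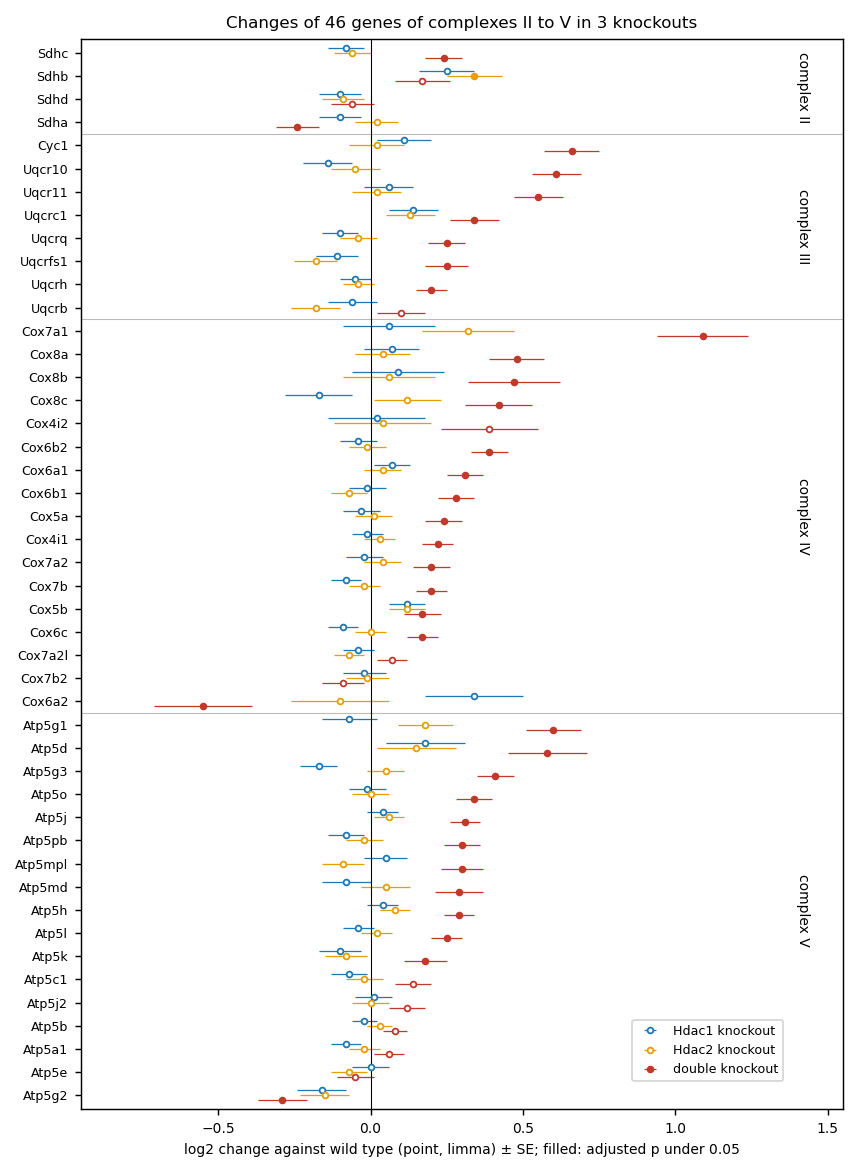
Points give the log2 change of each of the 46 genes (vertical axis, by complex) against wild type in the Hdac1 knockout, the Hdac2 knockout and the double knockout (horizontal axis), with bars of 1 SE from limma and filled points where the adjusted p was under 0.05. The filled points are those of the double knockout, 32 to the right of 0 and 3 to the left, apart from Sdhb, which is filled in the Hdac2 knockout.

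Against the single knockouts the double knockout gave like counts. It was higher than the Hdac1 knockout for 31 members and lower for 1 (18.7% and 20.1% of all tested probe sets), with a median change of 0.27. It was higher than the Hdac2 knockout for 32 and lower for 2 (16.8% and 16.9% of all tested probe sets), with a median change of 0.25. These comparisons share the double-knockout arrays with the one against wild type. Uqcr10, a small subunit of complex III, was higher by 1.68-fold than in the Hdac1 knockout and by 1.58-fold than in the Hdac2 knockout (limma adjusted p = 1.11e-06 and 7.8e-06).

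Promoter sequences are shown for 5 members that differ in how they changed: Sdha and Atp5g2, which fell, and Cox6a1, Cox7a1 and Atp5g1, which rose. They are the 250 bases before the annotated start in RefSeq (GRCm38.p6), read 5′ to 3′ on the gene's strand, and the capitals mark matches on either strand to the letters GCGC, any base and TGCGC (bound by NRF1), to CCGGAAG (bound by GABPA) or to AANATGGCG (bound by YY1), motifs that share no position in these 5 windows. NRF1 and GABPA are known as activators of respiratory subunit genes.
Sdha, chr13:74350241-74350490, minus strand: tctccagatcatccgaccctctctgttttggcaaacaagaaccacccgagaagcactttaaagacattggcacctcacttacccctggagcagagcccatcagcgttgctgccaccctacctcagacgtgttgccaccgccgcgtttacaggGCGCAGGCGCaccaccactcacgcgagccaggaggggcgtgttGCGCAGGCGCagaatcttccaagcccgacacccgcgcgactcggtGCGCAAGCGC
Atp5g2, chr15:102671048-102671297, minus strand: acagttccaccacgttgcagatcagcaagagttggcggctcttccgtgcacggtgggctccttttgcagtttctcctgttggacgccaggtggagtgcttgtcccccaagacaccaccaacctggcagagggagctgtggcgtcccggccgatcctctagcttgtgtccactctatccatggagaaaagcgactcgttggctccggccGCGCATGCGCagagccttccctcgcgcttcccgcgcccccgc
Cox6a1, chr5:115348959-115349208, minus strand: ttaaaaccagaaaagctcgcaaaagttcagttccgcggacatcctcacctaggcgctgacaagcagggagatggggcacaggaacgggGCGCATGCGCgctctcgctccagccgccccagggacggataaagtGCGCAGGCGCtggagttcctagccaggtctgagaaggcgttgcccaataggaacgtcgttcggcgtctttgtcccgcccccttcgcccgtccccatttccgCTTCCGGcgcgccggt
Cox7a1, chr7:30183921-30184170, plus strand: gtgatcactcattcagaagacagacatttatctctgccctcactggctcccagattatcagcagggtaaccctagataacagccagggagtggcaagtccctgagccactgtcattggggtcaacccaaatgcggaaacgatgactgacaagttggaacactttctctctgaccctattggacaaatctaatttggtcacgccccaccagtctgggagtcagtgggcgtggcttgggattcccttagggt
Atp5g1, chr11:96075632-96075881, minus strand: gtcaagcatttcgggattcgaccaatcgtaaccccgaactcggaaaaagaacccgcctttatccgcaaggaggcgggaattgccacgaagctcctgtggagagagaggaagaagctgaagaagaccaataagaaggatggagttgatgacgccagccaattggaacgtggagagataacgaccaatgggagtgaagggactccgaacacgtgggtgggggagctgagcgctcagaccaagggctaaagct
The 3 matches in Sdha, the 1 in Atp5g2 and 2 of the 3 in Cox6a1 are of the NRF1 kind, the third in Cox6a1 is of the GABPA kind, and Cox7a1 and Atp5g1 have none in this window. RefSeq promoters of 300 bases (250 before the start and 50 after) were found for 35 of the 46 members, 38 promoters in all. The NRF1 letters stood in 10 of them (26.3%, against 4.6% of all 32851 promoters in the table), the GABPA letters in 13 (34.2%, against 8.86%), the YY1 letters in 3 (7.89%, against 2.38%), and at least 1 of them in 21 (55.3%, against 14.2%). Among members with a promoter in the table, 13 of the 25 that were higher in the double knockout held a match, as did 2 of the 2 that were lower and 6 of the 8 that did not pass. The gene Nrf1 itself had a change of -0.24 (adjusted p = 0.0623) and Gabpa of -0.08 (0.258), neither passing in limma.

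In complex II 1 subunit fell, 1 rose and 2 did not pass in the double knockout. Sdha, the flavoprotein that oxidises succinate, read 10.33, 10.13, 10.26 and 10.42 in wild type and 9.98, 9.99, 10.16 and 10.04 in the double knockout. The highest double-knockout array lay above the lowest wild-type array, and the mean fell by 15.5% (log2 change -0.24, SE 0.07, limma adjusted p = 0.0147). Without wild-type replicate 4 the change was -0.20 with an adjusted p of 0.057, so the call rests on that array. Sdhc, which with Sdhd anchors the enzyme in the inner membrane, read 10.15, 10.21, 10.03 and 10.20 in wild type and 10.33, 10.45, 10.30 and 10.48 in the double knockout, with no overlap, and was higher by 1.18-fold (SE 0.06 on the log2 scale, adjusted p = 0.00296). Sdhd read 8.13, 8.15, 8.09 and 8.08 in wild type and 8.01, 8.01, 8.13 and 8.07 in the double knockout, with overlap, a change of -0.06 (adjusted p = 0.538 by limma). On the same array the log2 value of Sdhc minus that of Sdha was higher in the double knockout than in wild type by 0.48, with SDs of 0.15 in each genotype and no overlap, a pair picked after the values were seen.

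Sdhb, the iron-sulphur subunit that hands electrons from the flavin to ubiquinone, had its highest mean in the Hdac2 knockout. It read 9.43, 9.26, 9.01 and 9.44 in wild type. The probe set read 9.63, 9.65, 9.35 and 9.52 in the Hdac1 knockout, 9.56, 9.63, 9.71 and 9.60 in the Hdac2 knockout, against 9.41, 9.42, 9.52 and 9.47 in the double knockout. All Hdac2-knockout arrays were above all wild-type arrays (log2 change 0.34, SE 0.09, limma adjusted p = 0.0319), while the double knockout overlapped wild type (0.17, adjusted p = 0.137). Its interaction was negative, -0.42 (SE 0.12, adjusted p = 0.0213). The call in the Hdac2 knockout was lost without any 1 of the Hdac2-knockout arrays or without wild-type replicate 2 or 3, where the adjusted p reached 0.0828.

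In complex III the 3 members that are redox or core subunits were all higher in the double knockout, where 18.5% of all tested probe sets were called higher. Uqcrc2, also a core protein, was no member. Its brighter probe set, which names several genes, changed by 0.09 (limma adjusted p = 0.332, all probe sets fitted). Cyc1, cytochrome c1, which donates electrons to cytochrome c, read 7.72, 7.98, 7.69 and 8.00 in wild type and 8.60, 8.41, 8.60 and 8.42 in the double knockout. The groups were apart by more than either group's range, and the rise was 1.58-fold (SE 0.09 on the log2 scale, limma adjusted p = 2.69e-05). Cyc1 read 8.00, 7.99, 8.01 and 7.85 in the Hdac1 knockout and 7.80, 7.99, 8.04 and 7.64 in the Hdac2 knockout, overlapping wild type, and did not pass in either. Uqcrc1, a core protein on the matrix side, was higher by 1.27-fold (8.17 ± 0.12 to 8.51 ± 0.16, SD, n = 4; limma adjusted p = 0.00345). Its highest array, 8.74 in double-knockout replicate 1, stood above the other 3, at 8.39 to 8.49. Uqcrfs1, the Rieske iron-sulphur protein, was higher by 1.19-fold (adjusted p = 0.00743 by limma), a call lost with each array centred on its own median. In both single knockouts its change was below 0 (-0.11 and -0.18, not passed), and its interaction was 0.54 (SE 0.10, adjusted p = 0.000636).

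Of the 5 small subunits of complex III, which carry no redox centre, 4 were higher, against 18.5% of all tested probe sets. Uqcr10 read 8.83, 8.65, 8.58 and 8.73 in wild type. Arrays of the Hdac1 knockout gave 8.59, 8.57, 8.59 and 8.49, those of the Hdac2 knockout 8.50, 8.63, 8.73 and 8.75, and those of the double knockout 9.14, 9.22, 9.47 and 9.39. The double-knockout arrays lay above all 12 others, 1.53-fold over wild type (SE 0.08 on the log2 scale, limma adjusted p = 1.03e-05). Its interaction, 0.80 (SE 0.11, adjusted p = 8.32e-05), was the highest among the 46 members. Uqcr11 read 9.12, 9.04, 8.81 and 8.93 in wild type and 9.50, 9.49, 9.64 and 9.48 in the double knockout, again with no overlap, and was higher by 1.47-fold (limma adjusted p = 2.87e-05). Second probe sets of Uqcr10 and Uqcr11 were also called higher (changes of 0.48 and 0.57). Uqcrq was higher by 1.19-fold (adjusted p = 0.00147 by limma), with wild-type arrays between 10.46 and 10.57 and double-knockout arrays between 10.73 and 10.83. Uqcrh, the hinge protein that helps cytochrome c dock, was higher by 1.15-fold on its brighter probe set (adjusted p = 0.00744), but its other probe set changed by -0.13 without passing, and the mean of the pair gave 0.04 (adjusted p = 0.731). Uqcrb, which lies at the ubiquinone site, did not pass on any of 3 probe sets (0.10 to 0.15).

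In complex IV the 9 member genes for general isoforms and single-copy subunits were all higher in the double knockout. Their changes ran from 1.12-fold (Cox6c) to 1.39-fold (Cox8a), with no overlap with wild type for any of the 9. Over all tested probe sets, 18.5% were called higher, and 16.9% had all 4 double-knockout arrays above all 4 wild-type arrays. With each array centred on its own median, the calls of Cox5a, Cox5b, Cox6c, Cox7a2 and Cox7b were lost. Cox7c, a further small subunit that was no member, changed by 0.01 to 0.03 on 3 probe sets that name several genes. None of them passed (limma adjusted p = 0.684 to 0.885, all probe sets fitted). Cox4i1, the main isoform of the largest nuclear-encoded subunit, read 11.37, 11.47, 11.31 and 11.37 in wild type and 11.63, 11.56, 11.62 and 11.60 in the double knockout (1.17-fold, SE 0.05 on the log2 scale, limma adjusted p = 0.000887). Cox8a read 8.78, 8.79, 8.44 and 8.72 in wild type and 9.20, 8.98, 9.27 and 9.19 in the double knockout (limma adjusted p = 0.000432). For both genes the single knockouts lay within 0.07 of wild type in the mean. Cox6b1, which faces the intermembrane space near the cytochrome c site, was higher by 1.21-fold (adjusted p = 0.00103), Cox7a2 by 1.15-fold (0.0114), Cox7b by 1.15-fold (0.00433) and Cox5a by 1.18-fold (0.0067), all by limma. Cox5b, which binds zinc, was higher by 1.13-fold (adjusted p = 0.0318), a call lost without any 1 of wild-type replicates 2, 3 and 4 or double-knockout replicates 2, 3 and 4, where its adjusted p reached 0.0987. Cox7a2l, a relative of the Cox7a subunits that joins complexes III and IV into supercomplexes, did not pass on either probe set (0.07 and 0.16).

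Several subunits of complex IV have isoforms bound to muscle, lung or testis, and 7 such genes were members. Of these 4 were higher, 1 lower and 2 not passed, against 18.5% higher and 19.8% lower over all tested probe sets. Cox7a1, the heart and skeletal muscle isoform of Cox7a, had the highest change of the 46 members. It read 5.30, 5.15, 5.46 and 5.04 in wild type. It read 5.15, 5.46, 5.35 and 5.23 in the Hdac1 knockout, 5.41, 5.78, 5.60 and 5.42 in the Hdac2 knockout, against 5.89, 6.49, 6.19 and 6.73 in the double knockout. The wild-type values sat around the median of tested values and the double-knockout arrays lay above all others, 2.13-fold over wild type (SE 0.15 on the log2 scale, limma adjusted p = 1.64e-05). Cox6b2, the testis isoform of Cox6b, read 10.73, 10.62, 10.59 and 10.63 in wild type and 10.90, 11.02, 11.13 and 11.09 in the double knockout, a rise of 1.31-fold (limma adjusted p = 8.22e-05) beside the 1.21-fold of Cox6b1. Cox8c, the testis isoform of Cox8, was higher by 1.34-fold (adjusted p = 0.00685), with 1 double-knockout array, 5.57, inside the wild-type range of 5.25 to 5.61.

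Cox6a2, the muscle isoform of Cox6a, went the other way from its general partner. It read 7.36, 7.33, 7.27 and 7.06 in wild type. Arrays of the Hdac1 knockout gave 7.72, 7.73, 7.66 and 7.27, those of the Hdac2 knockout 6.65, 7.19, 7.34 and 7.45, and those of the double knockout 6.55, 6.91, 6.39 and 6.95. The double knockout lay below wild type without overlap and fell by 31.8% (log2 change -0.55, SE 0.16, limma adjusted p = 0.0122), and against the Hdac1 knockout the change was -0.89 (adjusted p = 0.000295). Cox6a1 read 10.83, 10.84, 10.77 and 10.80 in wild type and 11.06, 11.08, 11.16 and 11.18 in the double knockout, a rise of 1.24-fold (adjusted p = 0.000343 by limma). On the same array the log2 value of Cox6a1 minus that of Cox6a2 was higher in the double knockout than in wild type by 0.86 (SD 0.12 in wild type and 0.28 in the double knockout, no overlap), again a pair picked after its values were seen. Because each gene alone lay apart from wild type, in opposite directions, this difference could not have overlapped and is no further evidence.

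The remaining isoform genes were dim. Cox8b, of muscle, read 3.60, 3.63, 3.55 and 3.49 in wild type and 3.81, 4.64, 4.03 and 3.68 in the double knockout. It passed (limma adjusted p = 0.0213) with a change of 0.47 that fell to 0.27 without double-knockout replicate 2 (adjusted p = 0.0506); without wild-type replicate 4 the adjusted p was 0.0532. Cox4i2, the lung isoform of Cox4, read 4.84, 5.60, 4.65 and 5.28 in wild type and 5.49, 5.30, 5.69 and 5.43 in the double knockout and did not pass (adjusted p = 0.0704), but without wild-type replicate 2 its change was 0.56 and passed (0.00468). Cox7b2, of testis, stayed between 2.96 and 3.32 on all 16 arrays.

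**Figure D3:**
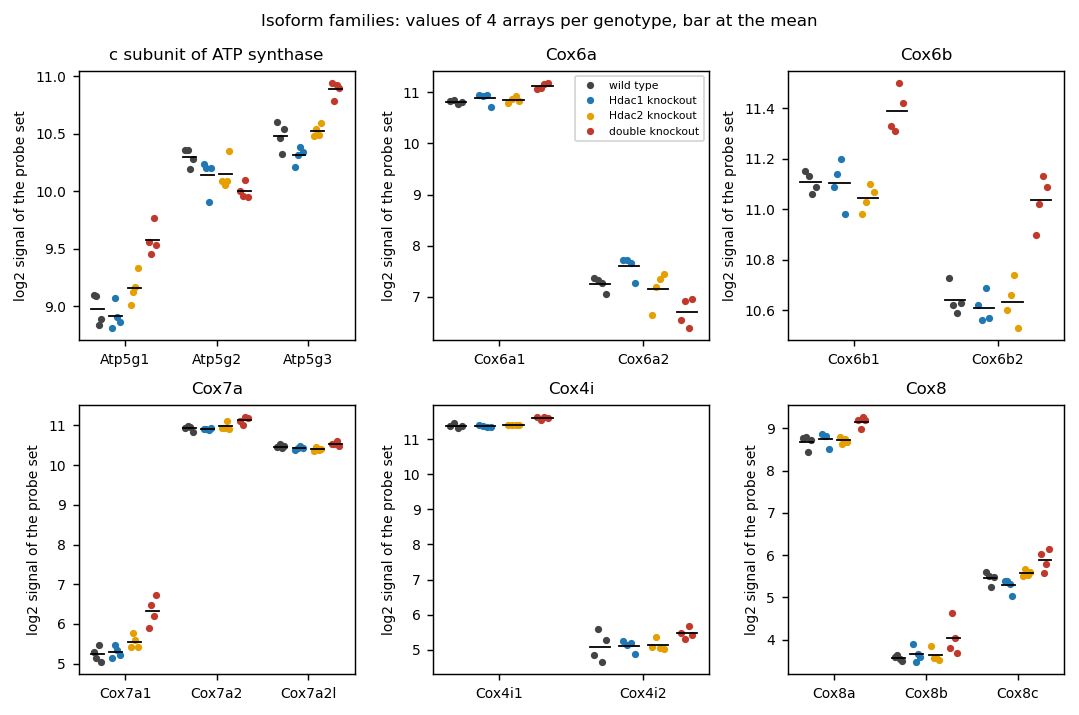
Log2 signals (vertical axis) of the members of 6 isoform families on the 4 arrays of each genotype, each point 1 array and each bar the mean of 4. Atp5g2 and Cox6a2 fall in the double knockout while the other plotted genes of their families rise, and Cox7a1 rises from a mean of 5.24 to 6.33; levels of different genes are not comparable.

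In complex V the counts are given by the place of the subunit in the enzyme. The head and central stalk of F1, where ATP is made, had 1 of 5 members higher, the peripheral stalk that holds the head still had 4 of 4, the c ring that turns in the membrane had 2 of 3 higher and 1 lower, and the other membrane subunits had 4 of 5. The shares over all tested probe sets were 18.5% higher and 19.8% lower. Whether the portions of the enzyme differ was not tested. Atp5a1 and Atp5b, the alpha and beta subunits that carry the nucleotide sites, had changes of 0.06 (SE 0.05, adjusted p = 0.394) and 0.08 (SE 0.04, adjusted p = 0.145 by limma). Atp5c1, the gamma shaft, had 0.14 (adjusted p = 0.0973) and Atp5e, the epsilon subunit, -0.05 (0.532). Atp5d, the delta subunit of the central stalk, was the exception and was higher by 49.9% (7.14 ± 0.19 to 7.73 ± 0.22, SD, n = 4; limma adjusted p = 0.00199).

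The 4 genes of the peripheral stalk rose by 1.22-fold to 1.27-fold. Atp5o, the subunit that ties the stalk to the head, read 10.22, 10.17, 10.00 and 10.19 in wild type and 10.45, 10.47, 10.48 and 10.55 in the double knockout (1.27-fold, SE 0.06 on the log2 scale, limma adjusted p = 0.000213). Atp5j, coupling factor 6, read 10.14, 10.17, 10.03 and 10.08 in wild type and 10.38, 10.46, 10.44 and 10.39 in the double knockout (1.24-fold, limma adjusted p = 0.00011). For both genes all double-knockout arrays were above the 12 others. Atp5h, subunit d, was higher by 1.22-fold (adjusted p = 0.000201), with 3 of its 4 probe sets called higher, and Atp5pb, subunit b, by 1.23-fold (0.00109), both by limma.

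The c ring is built from 1 mature protein that 3 genes encode with different mitochondrial targeting sequences, and these genes moved in opposite directions. Atp5g1 read 9.10, 9.09, 8.84 and 8.89 in wild type. The probe set read 8.81, 9.07, 8.91 and 8.86 in the Hdac1 knockout, 9.01, 9.12, 9.17 and 9.33 in the Hdac2 knockout, against 9.56, 9.45, 9.77 and 9.53 in the double knockout, a rise of 1.52-fold over wild type (SE 0.09 on the log2 scale, limma adjusted p = 3.92e-05). Atp5g3 read 10.60, 10.46, 10.32 and 10.54 in wild type. The probe set read 10.21, 10.31, 10.38 and 10.34 in the Hdac1 knockout, 10.48, 10.54, 10.49 and 10.59 in the Hdac2 knockout, against 10.94, 10.78, 10.92 and 10.90 in the double knockout, a rise of 1.32-fold (limma adjusted p = 7.17e-05). Atp5g2 read 10.36, 10.36, 10.19 and 10.28 in wild type. The probe set read 10.24, 10.20, 9.91 and 10.20 in the Hdac1 knockout, 10.09, 10.05, 10.09 and 10.35 in the Hdac2 knockout, against 10.00, 9.96, 10.10 and 9.95 in the double knockout. Its double-knockout arrays lay below all wild-type arrays and overlapped both single knockouts, and the mean fell by 18.4% from wild type (log2 change -0.29, SE 0.08, limma adjusted p = 0.00768). Against the single knockouts Atp5g2 did not pass (-0.14 in each). All 3 probe sets of Atp5g2 were called lower (-0.33 to -0.27) and both of Atp5g1 higher (0.57 and 0.60). On the same array Atp5g1 minus Atp5g2 was higher in the double knockout than in wild type by 0.89 (SDs 0.06 and 0.07), and Atp5g3 minus Atp5g2 by 0.70 (SDs 0.08 and 0.07), without overlap, for pairs picked after their values were seen. The lack of overlap was fixed by the single genes, which each lay apart from wild type in opposite directions. It is no further evidence.

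Among the other membrane subunits, Atp5l (subunit g) was higher by 1.19-fold (adjusted p = 0.000877), with all 6 of its probe sets called higher. Atp5md, a small subunit tied to the dimers of ATP synthase, was higher by 1.22-fold (adjusted p = 0.0113) on 3 of 3 probe sets, and Atp5mpl by 1.23-fold (0.00375), all by limma. Atp5k (subunit e) was higher by 1.13-fold (adjusted p = 0.0458), a call lost in 9 of the 16 fits that left out 1 array, where the adjusted p reached 0.145. Those arrays were Hdac1-knockout replicates 2 and 3, Hdac2-knockout replicates 1 and 3, double-knockout replicates 1, 2 and 4, and wild-type replicates 3 and 4. Atp5j2 (subunit f) did not pass (0.12, adjusted p = 0.107), but passed without wild-type replicate 1 (0.16, adjusted p = 0.0328 by limma).

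Other lists of mitochondrial genes were counted in the same comparison, where 18.5% of all tested probe sets were called higher and 19.8% lower. Among subunits of complex I, which feeds electrons from NADH into the chain, 18 of 36 were higher in the double knockout, 0 lower and 18 not passed by limma, with a median change of 0.19. Carriers that exchange ADP, ATP and phosphate across the mitochondrial membranes had 4 of 7 higher and 0 lower (median 0.20), led by Vdac1, the outer membrane channel, at 1.78-fold (adjusted p = 2.06e-08), and Slc25a5, an ADP and ATP exchanger, at 1.40-fold (9.22e-06). Enzymes of the tricarboxylic acid cycle other than complex II had 4 of 12 higher and 2 lower (median -0.02); Suclg1 was higher by 1.77-fold (adjusted p = 2.34e-07) and Suclg2, a subunit that pairs with it, had a change of -0.29 (0.0014). Of 74 mitochondrial ribosomal proteins 14 were higher (18.9%) and 10 lower (13.5%), with a median change of -0.02.

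Assembly factors build complexes II to V but are no part of them. Of 33 measured, 2 were higher (6.06%), 15 lower (45.5%) and 16 not passed in limma (median -0.19). The shares over all tested probe sets were 18.5% and 19.8%. Atpaf1, a chaperone of the F1 head, had a change of -0.57 (8.48 ± 0.09 to 7.91 ± 0.09, SD, n = 4; limma adjusted p = 1.41e-06), Fmc1, which also acts on F1, of -0.75 (0.000274) and Cox10, which makes the haem of complex IV, of -0.38 (0.000146). Uqcc3, an assembly factor of complex III, was higher by 2.13-fold (adjusted p = 3.04e-07), and Coa5, of complex IV, by 1.28-fold (0.000147). Of 13 genes for cytochrome c and for ubiquinone synthesis 1 was higher and 5 lower (7.69% and 38.5%, median -0.10). Cycs, the somatic cytochrome c, had a change of -0.02 (adjusted p = 0.828), and Cyct, the testis form, had one of -1.67 (8.63 ± 0.09 to 6.96 ± 0.39, SD, n = 4; limma adjusted p = 8.08e-08).

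Of 14 genes for mitochondrial biogenesis and mitochondrial DNA upkeep, 5 were higher and 3 lower in the double knockout (35.7% and 21.4%, median -0.02). The shares over all tested probe sets were 18.5% and 19.8%. Tfam, which packages and transcribes mitochondrial DNA, had a change of -0.53 (adjusted p = 4.54e-05) and Twnk, its helicase, of -0.67 (8.14e-06), while the coactivator gene Pprc1 was higher by 1.38-fold (9.67e-05) and Gabpb1, the partner of GABPA, by 1.21-fold (0.00152), all by limma. The 6 subunits of complexes III to V that mitochondrial DNA encodes on a list of their own were not analysed here.

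**Figure D4:**
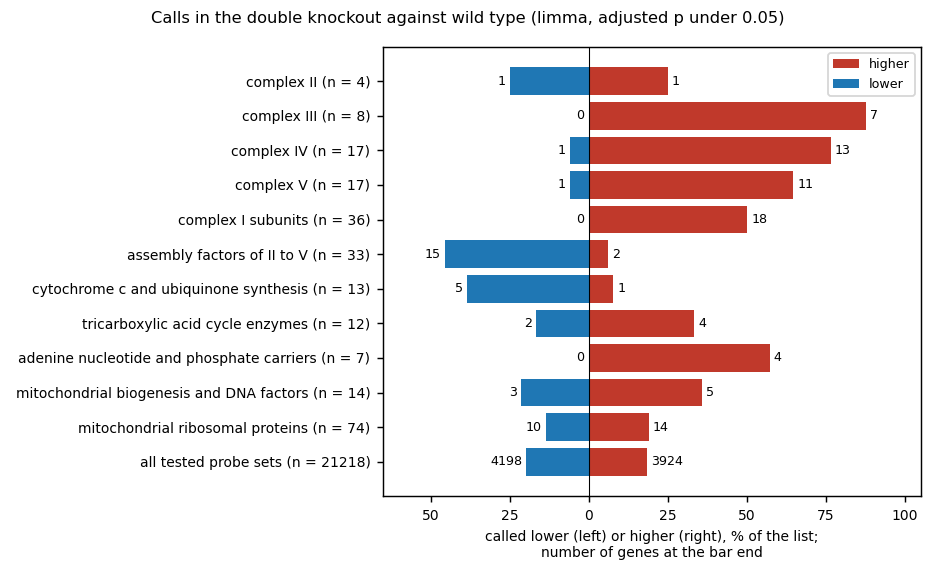
Bars give the percentage of each gene list called higher (right) or lower (left) in the double knockout against wild type, with the number of genes at the end of each bar and the size of each list beside its name. Complexes III, IV and V have 7, 13 and 11 genes to the right against 0, 1 and 1 to the left, assembly factors have 2 to the right and 15 to the left, and all tested probe sets have 3924 and 4198.

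The counts depend in part on how the arrays are scaled. With each array centred on its own median, the calls over all tested probe sets in the double knockout against wild type went from 3924 higher and 4198 lower to 2878 higher and 6275 lower, and their median change from -0.01 to -0.10. Of the members 22 were then higher and 4 lower, and their median change was 0.16. The calls of Uqcrfs1, Uqcrh, Cox5a, Cox5b, Cox6c, Cox7a2, Cox7b, Cox8b, Atp5k and Atp5md were lost under that scaling, while Cox7b2 passed as lower (-0.18, limma adjusted p = 0.0466).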

How the data were processed

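RNA of oocyte pools was amplified and hybridised to Affymetrix Mouse 1.1 ST arrays, per the labels' protocols; MAS5, GeneSpring v7, SAM and EASE are named in the design text and MAS5 in the submitters' processing notes. The values deposited by the authors are 1 log2 signal per probe set and array (35556 probe sets, 16 arrays). No header or label states their log base, scaling or centring. Medians of the arrays ran from 4.46 to 4.59, and the values were taken as log2 and kept as they were. Signals carry no counts, and 4 arrays a group limit the precision.

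Probe sets with 1 gene symbol in the platform annotation (21218; 1881 had several symbols and 12457 none) entered 1 limma fit (limma 3.58.1, R 4.3.3) of all 16 arrays with a mean per genotype; p-values were Benjamini-Hochberg adjusted over these probe sets, with 0.05 as the threshold. SE is limma's. Gene identifiers of 21185 probe sets matched RefSeq, and 0 symbols changed. Cox7c and Uqcrc2 had only probe sets with several symbols and were no members. The fit was tested on simulated data with independent noise and few probe sets changed. That setting is unlike the broad changes of the double knockout, and no conclusion is drawn from it. The members and lists were chosen with earlier results of these data known. The rule for values on each array took isoform families and, by lowest adjusted p for double knockout against wild type, up to 5 members of each complex; these are printed in part, and the plot of arrays and the means stand for the rest.

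Same-numbered arrays of different genotypes did not deviate together (24 correlations of deviations from group means, -0.148 to 0.0866), so replicate numbers were not taken as pairs. The 72 correlations between arrays of different number ran from -0.124 to 0.204. Such correlations cannot show how the samples were bred or processed. Alternatives were other scalings, filters, probe set rules, variance models and leaving out each array. Promoters come from RefSeq (GRCm38.p6); no genome build of the arrays was used.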

Additional observations from a re-analysis of the deposited data

Results flagged for a closer look

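Single arrays far from the other 3 of their group were found in 9 of 116 groups of 4, where chance gives about 1 in 20. Of the 9, 5 are Hdac1-knockout replicate 4, each time the lowest: Cyc1 at 7.85 (others 7.99 to 8.01), Uqcr11 at 8.85 (9.07 to 9.11), Cox6a1 at 10.72 (10.92 to 10.94), Cox6a2 at 7.27 (7.66 to 7.73) and Cox8a at 8.51 (8.81 to 8.86). The others are Uqcr11 in double-knockout replicate 3 at 9.64 (9.48 to 9.50), Cox7a2 in Hdac2-knockout replicate 3 at 11.12 (10.90 to 10.94), Atp5g2 in Hdac1-knockout replicate 3 at 9.91 (10.20 to 10.24) and Atp5g2 in Hdac2-knockout replicate 4 at 10.35 (10.05 to 10.09).

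The effect of losing one gene differed with the state of the other for 27 members, by the interaction term of the limma fit. In complex II it was -0.42 for Sdhb and 0.38 for Sdhc. In complex III it was 0.53 for Cyc1, 0.80 for Uqcr10, 0.48 for Uqcr11, 0.33 for Uqcrb, 0.54 for Uqcrfs1, 0.28 for Uqcrh and 0.39 for Uqcrq. In complex IV it was 0.20 for Cox4i1, 0.26 for Cox5a, -0.79 for Cox6a2, 0.35 for Cox6b1, 0.44 for Cox6b2, 0.25 for Cox6c, 0.71 for Cox7a1, 0.29 for Cox7b, 0.38 for Cox8a and 0.47 for Cox8c. In complex V it was 0.49 for Atp5g1, 0.53 for Atp5g3, 0.22 for Atp5j, 0.36 for Atp5k, 0.28 for Atp5l, 0.35 for Atp5mpl, 0.35 for Atp5o and 0.39 for Atp5pb. Some of these calls were lost in fits without 1 array, in 13 of 16 such fits for Uqcrb, 12 for Cox5a and 11 for Cox8a. They were also lost in 10 for Cox8c, 9 each for Cox4i1 and Atp5j and 4 for Atp5mpl. The other calls were lost in none of those fits. Centring each array on its own median lost the calls of Uqcrb, Cox5a, Cox8a, Cox8c, Cox4i1, Atp5j, Atp5mpl, Uqcrh, Cox6c, Cox7b and Atp5l. The call of Uqcrh was also lost with the mean of its probe sets.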

How the results depend on the processing

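Of the members, 32 were higher in the double knockout than in wild type, and leaving out 1 array gave 29 to 33. The other alternatives gave 22 (arrays centred on their medians) to 33 (trend and robust variance), apart from 6 higher and 1 lower when at least 1.4-fold was also required. With that limit, 7 were higher than in the Hdac1 knockout, 4 higher and 0 lower than in the Hdac2 knockout, 0 higher in the Hdac2 knockout than in wild type, and the interaction passed for 6 upwards and 1 downwards. With centring, 4 were lower than in the Hdac1 knockout, 19 higher and 4 lower than in the Hdac2 knockout, and the interaction passed upwards for 14; the changes against wild type of Cox7a2l (-0.02), Atp5a1 (-0.02) and Atp5b (0.00) turned below 0, and none of these was called. The 1 member higher in the Hdac2 knockout, Sdhb, became 0 with all probe sets fitted, with only the arrays of the contrast, and in 6 of the 16 fits without 1 array (range 0 to 1). The 2 members lower in the double knockout than in the Hdac2 knockout became 1 with all probe sets fitted and with only the arrays of the contrast, and 1 to 2 without 1 array: Cox6a2 lost its call without Hdac2-knockout replicate 2, 3 or 4 or double-knockout replicate 1 or 3. The 1 lower than in the Hdac1 knockout became 2 without Hdac1-knockout replicate 3. Replicate numbers were not taken as pairs. With the number as a replicate block, 31 members were higher in the double knockout than in wild type and 0 higher in the Hdac2 knockout. In that fit 1 was lower in the double knockout than in the Hdac2 knockout. The cause of these shifts was not tested. Dim probe sets (Cox7b2, Cox8b) have the least signal over background.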

Other observations

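Genes of these complexes that the choice by 1 gene symbol left out can be read from probe sets whose annotation names several genes, in a limma fit of all probe sets. Cox7c, a small subunit of complex IV, had 3 such probe sets with changes of 0.01 to 0.03 in the double knockout against wild type (adjusted p = 0.684 to 0.885), where the 9 general subunits of that complex that were members rose. Uqcrc2, a core protein of complex III, had a change of 0.09 (adjusted p = 0.332) on its brighter probe set. These probe sets may also measure the other genes they name. Atpif1 and Dmac2l lie outside the rule by their names and were read in the same fit from probe sets with 1 symbol. Atpif1, the inhibitor that keeps ATP synthase from running backwards, had a change of 0.18 (limma adjusted p = 0.02). Dmac2l, a factor that couples ATP synthase, had one of -0.45 (0.000283).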
